A study of Mus musculus with 10 samples.

Results

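The 52 genes described here build and control the mitotic spindle, the kinetochore and the final cut of cell division, and they were taken by name from 45321 annotated mouse genes. They were listed because several of them were higher with Compound 10 in these same libraries, so their differences between Compound 10 and vehicle are given as a description. For these differences the number of members past the threshold is counted beside that over all genes. No p-value of a single member is given or taken as support for them. Adjusted p-values of members are printed only for the effect of stimulation. Compound 10 is a chemical inhibitor of the pairing of NFAT with AP-1, a transcription factor partnership that drives much of early T cell activation. RNA was measured in naive CD4 T cells, sorted as CD4+CD62L+CD69- cells from spleens of C57BL/6 mice, which carried no other stated allele. All cells were held for 1 h with 12.5 µM Compound 10 or with DMSO, the vehicle. They were then given 10 nM PMA and 1 µM ionomycin, a phorbol ester and a calcium ionophore that bypass the T cell receptor, for 2 h, or were left unstimulated.

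The stimulated cells gave 3 Compound 10 libraries and 2 vehicle libraries, and the unstimulated cells gave 2 Compound 10 libraries and 3 vehicle libraries. Total estimated counts ran from 10694591 to 33486259 per library. Whether libraries of one group stem from different mice or cultures is not stated in the labels, so the p-values reflect how far these libraries vary, which may be technical. In bulk RNA, a change in the number of cells that express a gene and a change in RNA per cell cannot be told apart. Levels are CPM, which are counts scaled by library total and TMM factor, and levels are compared between genes only as TPM, which also accounts for transcript length. Genomic positions are on GRCm38 (mm10) with GENCODE M21, counted from 1.

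A naive T cell rests outside the cell cycle and keeps most mitotic genes repressed. This works in large part through complexes that sit on a short promoter element named the cell cycle homology region. A further short element looked for in the promoters of these genes is the CCAAT box. After full activation these genes are switched on only when the cell nears its first division, well after the short exposure used here. Their products condense chromosomes, tie them to microtubules through the kinetochore, hold back anaphase until every chromosome is attached, and then split the cell.

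The elements themselves can be read in the promoters. RefSeq promoter windows of 300 bases (250 before and 50 after the annotated start, build GRCm38.p6) were matched for 44 of the 52 genes. Incenp, Tpx2, Smc4, Spc24, Ccna2, Cdc25c, Aurkb and Kif20a had no match. The following windows are shown because the first pair belongs to genes that were more than 2-fold higher with Compound 10 in both states, while the second pair belongs to mitotic kinases that were not higher at rest. Capitals mark TTTGAA, the core of the cell cycle homology region, and CCAAT, each in either orientation. The windows are chr3:40799701-40800000 (Plk4, + strand), chr2:118597961-118598260 (Bub1b, + strand), chr10:69352863-69353162 (Cdk1, - strand) and chr7:122159185-122159484 (Plk1, + strand).
Plk4: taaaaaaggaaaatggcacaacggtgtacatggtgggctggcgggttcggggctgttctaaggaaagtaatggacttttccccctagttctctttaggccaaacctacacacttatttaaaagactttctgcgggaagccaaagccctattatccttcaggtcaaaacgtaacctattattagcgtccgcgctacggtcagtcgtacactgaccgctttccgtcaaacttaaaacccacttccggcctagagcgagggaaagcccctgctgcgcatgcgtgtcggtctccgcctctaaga
Bub1b: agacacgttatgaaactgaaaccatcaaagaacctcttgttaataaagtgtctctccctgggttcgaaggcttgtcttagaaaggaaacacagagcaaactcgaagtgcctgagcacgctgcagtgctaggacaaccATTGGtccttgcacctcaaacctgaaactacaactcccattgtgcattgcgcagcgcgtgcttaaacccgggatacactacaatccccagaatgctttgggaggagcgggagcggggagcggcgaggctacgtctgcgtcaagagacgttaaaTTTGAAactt
Cdk1: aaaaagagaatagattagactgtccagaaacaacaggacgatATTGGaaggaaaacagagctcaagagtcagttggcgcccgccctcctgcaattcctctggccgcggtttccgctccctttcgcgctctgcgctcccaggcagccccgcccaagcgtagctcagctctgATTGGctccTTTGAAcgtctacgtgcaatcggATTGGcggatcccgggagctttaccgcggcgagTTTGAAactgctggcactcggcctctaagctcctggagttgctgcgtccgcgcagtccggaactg
Plk1: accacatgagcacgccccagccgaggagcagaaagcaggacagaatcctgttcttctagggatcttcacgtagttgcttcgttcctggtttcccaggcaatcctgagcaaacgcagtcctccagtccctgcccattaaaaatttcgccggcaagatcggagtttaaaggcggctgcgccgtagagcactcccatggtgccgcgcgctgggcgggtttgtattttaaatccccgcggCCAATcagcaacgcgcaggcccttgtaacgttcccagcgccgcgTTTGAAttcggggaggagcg

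Plk4 held neither set of letters in its window, while Bub1b, Cdk1 and Plk1 held both. Across the 44 windows, searched on both strands without resolving overlaps between motifs, TTTGAA was found in 34 (77.3%), against 18.1% of 27025 RefSeq promoter windows of the same length. CCAAT was found in 31 (70.5%), against 37.9% of all windows. The letters TTTGGCGC, a strict form of the E2F element, were found in 3 windows (6.82%, against 0.537%), and the variant TTTCCCGC in 1 (2.27%, against 1.11%). TGANTCA, the AP-1 element, was found in 0 of the 44 windows, against 7.93% of all, and GGAAAA, the NFAT core, in 13 (29.5%, against 23.6%). Of the genes at least 2-fold higher with Compound 10 in both states, 13 had a window, and 9 of these held TTTGAA and 9 held CCAAT. Of the other members, 31 had a window, and 25 held TTTGAA and 22 held CCAAT. These matches describe letters in a window and are not evidence of a bound site.

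Levels were low in most members. In unstimulated vehicle cells, the median over the members that were at least 2-fold higher with Compound 10 in both states was 3.96 TPM, and the median over the other members was 3.18 TPM. The members highest per length in those cells were the condensin subunit Smc4 at 230 ± 36.3 TPM, the checkpoint protein Bub3 at 202 ± 28 TPM and the centromeric histone Cenpa at 108 TPM on average (SD, n = 3). By counts, without regard to length, 17 of the 52 genes stayed below 5 CPM in every library, 10 stayed below 3 CPM and 6 below 2 CPM.

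Compound 10 left the list split into 15 genes with at least 2-fold more RNA in both states and a larger number without. After stimulation, 22 of the 51 members tested were higher at an adjusted p under 0.05 in edgeR's quasi-likelihood test and 2 were lower (Kif15 and Ckap5), against 10.4% of all 14417 genes tested higher and 12.8% lower. In unstimulated cells, 17 members were higher and 1 was lower (Cdca8), against 4.65% of all genes higher and 3.78% lower. Bub1 had too few counts to be tested. The median log2 fold change over the members was 0.84 in stimulated cells, where all genes had a median of 0.04, and 0.53 in unstimulated cells, where all genes had a median of 0.00. Because these contrasts chose the members, no inference is drawn from these counts.

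The genes at least 2-fold higher in both states numbered 15, against 2.89% of all genes tested. They were Top2a, Cenpa, Cenpe, Ndc80, Bub1b, Ttk, Ccnb1, Plk4, Incenp, Tpx2, Nusap1, Prc1, Kif23, Ect2 and Anln. Just inside this limit lay Ccnb1 with a log2 fold change of 1.04 in stimulated cells, and just outside it lay Kif20a with 0.92 at rest and Cdc25c with 0.92 in stimulated cells. In 23 members, every Compound 10 library lay above every vehicle library in both states, against 9.18% of all genes. Bub3 and Ckap5 lay below in both states, against 8.87% of all genes. The 15 genes came from all roles but the spindle motors. Across the 51 genes, the log2 fold changes of both states, whose contrasts share no library, had a Pearson r of 0.76 and a Spearman rho of 0.68, while over all genes tested Pearson r was 0.27. Genes are not independent replicates, and the members were chosen on these values.

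**Figure D1:**
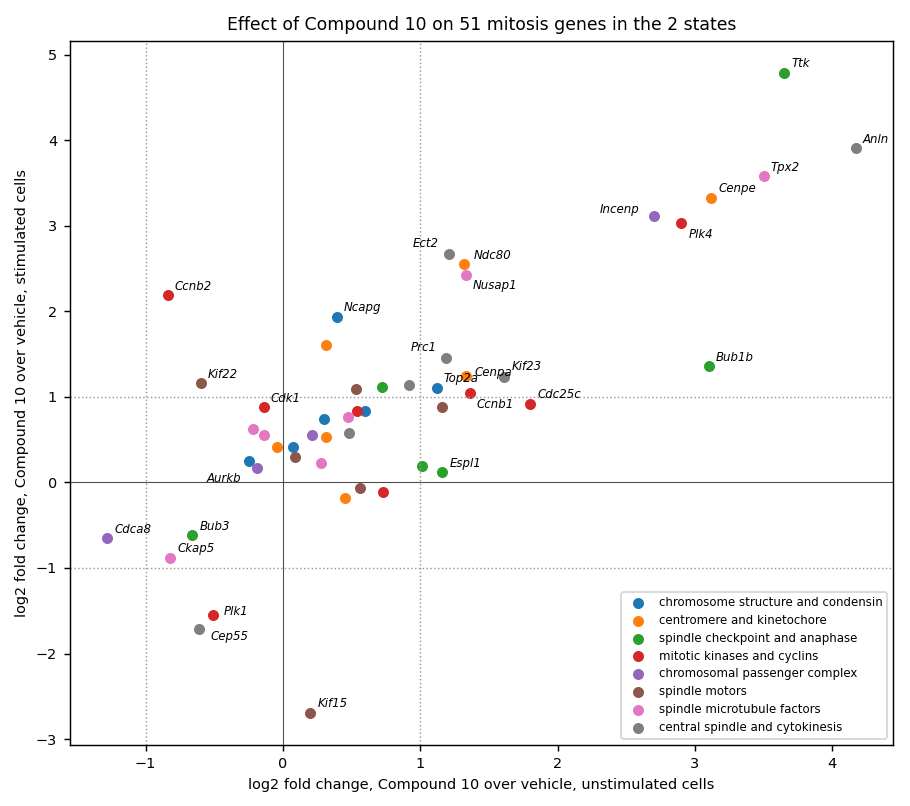
Log2 fold change of Compound 10 over vehicle in unstimulated cells (x axis) and in stimulated cells (y axis) for the 51 members tested, 1 point per gene, coloured by role. Dotted lines mark 2-fold changes; the 15 genes in the upper right corner were at least 2-fold higher in both states, Ttk and Anln lie farthest out, and Kif15 at -2.69 in stimulated cells lies lowest.

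Among the genes of chromosome structure, Top2a, the topoisomerase that untangles sister chromatids, had 95.4, 72.9 and 62.5 CPM in stimulated Compound 10 libraries, against 38.2 and 33.3 CPM in stimulated vehicle libraries. At rest it had 37 and 43.8 CPM with Compound 10, against 18.8, 20.4 and 16.6 CPM with vehicle. The groups did not overlap in either state, and the fold was 2.15 in stimulated and 2.17 in unstimulated cells. Smc4, an ATPase of condensin, differed less, with 254, 237 and 209 CPM in stimulated Compound 10 libraries, against 175 and 175 CPM with vehicle. At rest Smc4 had 228 and 279 CPM with Compound 10, against 249, 247 and 230 CPM with vehicle, so that it was above vehicle by 1.33-fold after stimulation and overlapped at rest. Its partner Smc2 had 14, 16.1 and 8.66 CPM in stimulated Compound 10 libraries, against 7.08 and 7.44 CPM with vehicle. At rest Smc2 had 29.9 and 33.3 CPM with Compound 10, against 21.5, 23.6 and 17.6 CPM with vehicle. Smc2 was thus above vehicle in every library in both states, by less than 2-fold. The condensin subunit Ncapg was 3.83-fold higher with Compound 10 in stimulated cells and 1.31-fold higher at rest, where the groups overlapped, while the subunit Ncapd2 was 1.19-fold higher after stimulation and 1.19-fold lower at rest, where its groups overlapped.

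At the centromere and kinetochore, Cenpa, the histone variant that marks the centromere, was the highest per length of the 15 genes in unstimulated vehicle cells. It had 104, 97.1 and 108 CPM in stimulated Compound 10 libraries, against 45 and 41.9 CPM with vehicle. At rest Cenpa had 195 and 191 CPM with Compound 10, against 77.8, 81.7 and 70.7 CPM with vehicle. Cenpa was 2.37-fold higher in stimulated cells and 2.52-fold higher at rest, with the libraries of each group close to each other. Cenpe, the kinetochore motor that carries chromosomes to the spindle equator (chromosome 3, 135212537 to 135273611, + strand), had 21.6, 14.7 and 18.4 CPM in stimulated Compound 10 libraries, against 1.80 and 1.82 CPM with vehicle. In unstimulated cells it had 24.8 and 23.6 CPM with Compound 10, against 2.79, 2.65 and 2.86 CPM with vehicle. Cenpe therefore stood 10-fold higher in stimulated and 8.70-fold higher in unstimulated cells, with a log2 fold change of 3.33 ± 0.27 and 3.12 ± 0.22 (± SE).

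Ndc80 codes for a subunit of the complex that grips microtubule ends. It had 26.2, 24.7 and 18.1 CPM in stimulated Compound 10 libraries, against 4.37 and 3.55 CPM with vehicle. At rest Ndc80 had 52.2 and 60.2 CPM with Compound 10, against 22.3, 19.1 and 26 CPM with vehicle. Ndc80 was 5.84-fold and 2.50-fold higher. The other subunits of its complex differed less at rest, where Nuf2, Spc24 and Spc25 had overlapping groups and mean levels of 0.965, 1.65 and 16.7 CPM with Compound 10, against 0.743, 1.23 and 13.6 CPM with vehicle. After stimulation Nuf2 and Spc25 were above vehicle in every library, by 3.05-fold and 1.44-fold, and Spc24 overlapped. Ndc80 shares 10.1% of the 31-base words of its leading transcript with the gene model 2700099C18Rik. That model had 5.33 ± 1.24 CPM in stimulated Compound 10 libraries and 2.86 ± 0.866 CPM with vehicle (SD, n = 3 and 2). At rest it had 10.3 ± 2.44 CPM with Compound 10 and 2.55 ± 0.338 CPM with vehicle (SD, n = 2 and 3), which is 2.03 on the log2 scale (adjusted p 0.00433, edgeR). Cenpf, a large outer kinetochore protein, stayed between 0.164 and 1.15 CPM over all libraries.

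In the spindle checkpoint, Bub1b, which codes for the checkpoint protein BubR1, had 16, 14.8 and 15.3 CPM in stimulated Compound 10 libraries, against 5.66 and 6.31 CPM with vehicle. In unstimulated cells it had 31.4 and 24.5 CPM with Compound 10, against 1.70, 5.12 and 2.95 CPM with vehicle. Its fold was 2.56 in stimulated cells and 8.55 at rest. Ttk, the kinase Mps1 that starts the checkpoint signal, had 4.53, 4.79 and 4.77 CPM in stimulated Compound 10 libraries, against 0.386 and 0 CPM with vehicle. Those stimulated levels rest on 151 counts against 3, a depth-scaled ratio of 30.4 with a 95% counting interval of 10.2 to 149. At rest Ttk had 1.66 and 1.5 CPM with Compound 10, against 0, 0.233 and 0.115 CPM with vehicle. Ttk was thus nearly absent from vehicle libraries and was counted in all 5 Compound 10 libraries.

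Bub3, which brings checkpoint proteins to the kinetochore, went the other way, with 66.3, 57 and 86.6 CPM in stimulated Compound 10 libraries, against 111 and 104 CPM with vehicle. At rest Bub3 had 134 and 154 CPM with Compound 10, against 212, 184 and 286 CPM with vehicle. Every Compound 10 library lay below every vehicle library in both states, with log2 fold changes of -0.62 ± 0.22 and -0.66 ± 0.22 (± SE). Cdc20, the activator of the anaphase-promoting complex, had 57.7, 44.5 and 66.3 CPM in stimulated Compound 10 libraries, against 26.2 and 25.4 CPM with vehicle. At rest Cdc20 had 56.9 and 68.6 CPM with Compound 10, against 39.9, 30.9 and 43.6 CPM with vehicle. Cdc20 was 2.17-fold higher in stimulated and 1.65-fold higher in unstimulated cells. It shares 25.1% of its 31-base words with the gene model Gm7856, which averaged at most 0.0501 CPM in any group. The reads assigned between them are uncertain. Its exons also overlap those of Elovl1 on the opposite strand over 53 bases. Mad2l1, which inhibits Cdc20 in the checkpoint, was 2.02-fold higher at rest and 1.14-fold higher in stimulated cells, where the groups overlapped. The checkpoint kinase gene Bub1 held 13 counts over the stimulated Compound 10 libraries and 7 over the stimulated vehicle libraries. At rest it held 2 counts with Compound 10 and 18 with vehicle, a depth-scaled ratio of 0.149 with a 95% counting interval of 0.0168 to 0.624. Of those 18 vehicle counts, 14 lay in 1 library, 4 in another and 0 in the last, so that the groups overlapped.

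Among the mitotic kinases and cyclins, Plk4, the kinase that licenses centriole duplication (chromosome 3, 40800019 to 40816883, + strand), had 96.6, 102 and 95.1 CPM in stimulated Compound 10 libraries, against 11.1 and 12.9 CPM with vehicle. At rest it had 43.8 and 42.9 CPM with Compound 10, against 7.66, 4.51 and 5.36 CPM with vehicle. The fold was 8.15 after stimulation and 7.44 at rest, and the lowest Compound 10 library of each state was far above the highest vehicle library. Plk1, the kinase that governs most steps of mitosis, did not share this, with 1.33, 0.770 and 0.177 CPM in stimulated Compound 10 libraries, against 3.34 and 1.12 CPM with vehicle. At rest Plk1 had 3.57 and 1.81 CPM with Compound 10, against 2.90, 5.12 and 3.29 CPM with vehicle. The Plk1 groups overlapped in both states. Plk1 shares 15.2% of its 31-base words with the pseudogene Plk-ps1, which averaged 0 to 0.342 CPM in the 4 groups, so reads assigned between them are uncertain. Aurka, the kinase of spindle poles, had 26.3, 16.9 and 26.1 CPM in stimulated Compound 10 libraries, against 24.1 and 25.5 CPM with vehicle. At rest Aurka had 34.3 and 40.6 CPM with Compound 10, against 22.7, 21.5 and 23.9 CPM with vehicle, so that it was higher at rest and overlapped after stimulation.

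Cdk1, the kinase that drives entry into mitosis, had 3.98, 7.36 and 6.27 CPM in stimulated Compound 10 libraries, against 3.22 and 3.20 CPM with vehicle. At rest Cdk1 had 3.19 and 1.63 CPM with Compound 10, against 3.56, 1.86 and 2.44 CPM with vehicle. Its groups overlapped at rest and were separate after stimulation, by 1.83-fold. Its cyclin partners differed among themselves. Ccnb1 had 6.18, 6.85 and 6.36 CPM in stimulated Compound 10 libraries, against 3.47 and 2.85 CPM with vehicle. At rest Ccnb1 had 7.08 and 7.35 CPM with Compound 10, against 2.19, 3.35 and 2.86 CPM with vehicle. Ccnb1 shares 40.2% of its 31-base words with the pseudogene Ccnb1-ps, which was listed at 0 in every group, so the reads assigned between them are uncertain. Ccnb2 had 1.44, 1.03 and 1.24 CPM in stimulated Compound 10 libraries, against 0.386 and 0.173 CPM with vehicle. At rest Ccnb2 had 1.79 and 3.01 CPM with Compound 10, against 4.60, 4.84 and 3.67 CPM with vehicle. Ccnb2 was therefore above vehicle after stimulation and below it at rest, while Ccna2 had overlapping groups after stimulation and was 1.45-fold higher at rest. Cdc25c, the phosphatase that activates Cdk1, was low throughout but separate in both states, with 2.32, 2.23 and 2.12 CPM in stimulated Compound 10 libraries, against 1.42 and 0.951 CPM with vehicle. At rest Cdc25c had 2.36 and 2.56 CPM with Compound 10, against 0.602, 0.745 and 0.745 CPM with vehicle. Cdc25c shares 623 exonic bases with Gm3550 on the opposite strand, which averaged 2.61 CPM in stimulated Compound 10 libraries and 1.04 CPM with vehicle, and 2.35 CPM at rest with Compound 10 and 1.83 CPM with vehicle.

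**Figure D2:**
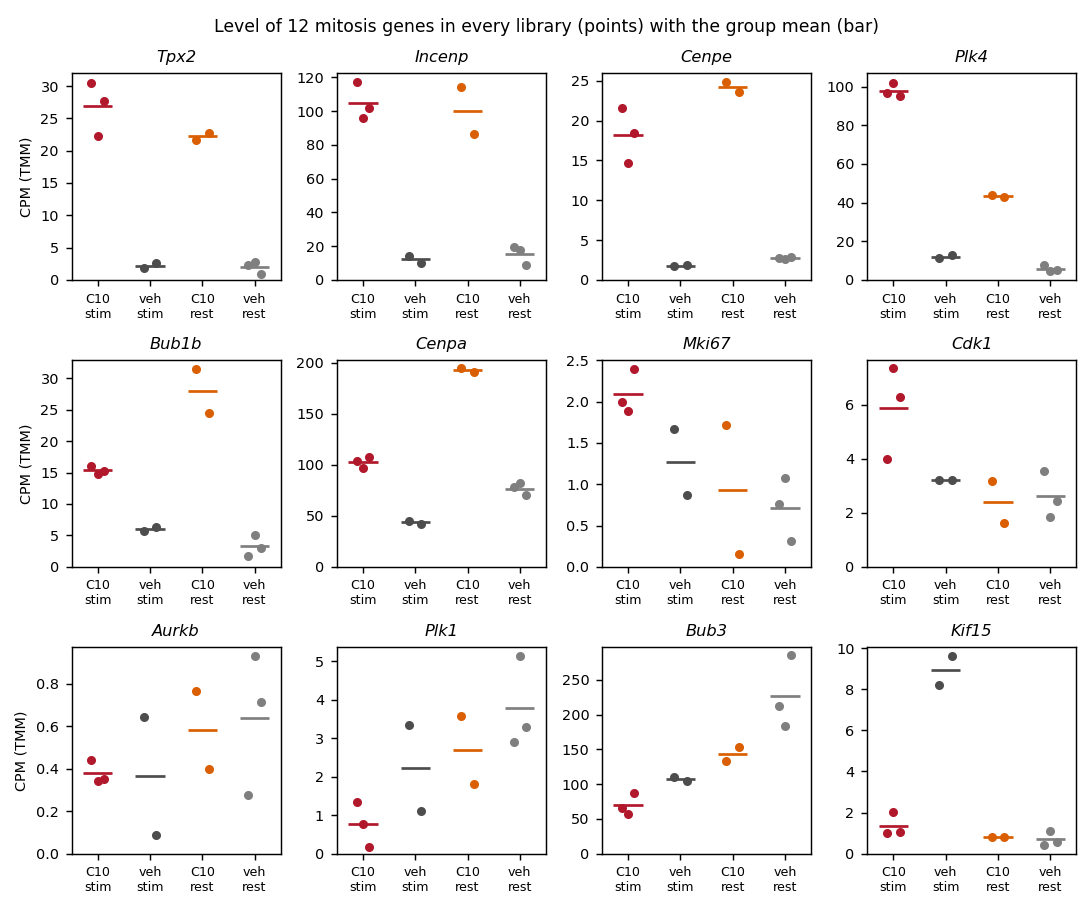
CPM with TMM factors (y axis, from 0) of 12 members in every library (points) with the group mean (bars), for Compound 10 (C10) and vehicle (veh) in stimulated (stim) and unstimulated (rest) cells. Tpx2, Incenp, Cenpe, Plk4, Bub1b and Cenpa lie higher with Compound 10 in both states, Mki67, Cdk1, Aurkb and Plk1 stay under 8 CPM, Bub3 lies lower with Compound 10, and Kif15 is high only in the 2 stimulated vehicle libraries.

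In the chromosomal passenger complex, Incenp, the scaffold that places Aurora B on chromosomes (chromosome 19, 9872296 to 9899551, - strand), had 117, 95.9 and 102 CPM in stimulated Compound 10 libraries, against 14.2 and 10.3 CPM with vehicle. In unstimulated cells it had 114 and 86.2 CPM with Compound 10, against 19.6, 18 and 8.94 CPM with vehicle. Incenp was 8.65-fold higher in stimulated and 6.48-fold higher in unstimulated cells, with log2 fold changes of 3.11 ± 0.34 and 2.70 ± 0.29 (± SE). The enzyme that this scaffold carries, Aurkb, averaged 0.379 ± 0.0545 CPM in stimulated Compound 10 libraries and 0.365 ± 0.394 CPM with vehicle (SD, n = 3 and 2). At rest Aurkb averaged 0.583 ± 0.258 CPM with Compound 10 and 0.640 ± 0.335 CPM with vehicle (SD, n = 2 and 3). Aurkb was thus barely counted in any group. Birc5, the survivin subunit, was above vehicle in every library, by 1.47-fold after stimulation and 1.16-fold at rest, at levels of at most 3.27 CPM. The remaining subunit, borealin, coded by Cdca8, had 1.99, 2.65 and 4.86 CPM in stimulated Compound 10 libraries, against 3.86 and 6.05 CPM with vehicle. At rest Cdca8 had 7.34 and 6.90 CPM with Compound 10, against 21.4, 14.1 and 16.4 CPM with vehicle. Cdca8 was 2.43-fold lower at rest and overlapped after stimulation, so that of the 4 subunits only Incenp was at least 2-fold higher.

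None of the 6 spindle motors was at least 2-fold higher in both states. Kif15, which helps keep spindle poles apart, had 0.994, 2.05 and 1.06 CPM in stimulated Compound 10 libraries, against 8.23 and 9.60 CPM with vehicle. At rest Kif15 had 0.829 and 0.802 CPM with Compound 10, against 0.438, 1.12 and 0.573 CPM with vehicle. Kif15 was thus higher in the 2 stimulated vehicle libraries than in the 8 other libraries. Kif20b, a motor of late mitosis, had 5.85, 4.11 and 4.95 CPM in stimulated Compound 10 libraries, against 1.80 and 2.77 CPM with vehicle. At rest Kif20b had 23.2 and 18 CPM with Compound 10, against 14.1, 16.2 and 12.5 CPM with vehicle. Kif22, which pushes chromosome arms outward, had 1.66, 2.31 and 3.36 CPM in stimulated Compound 10 libraries, against 0.643 and 1.47 CPM with vehicle. At rest Kif22 had 3.96 and 4.86 CPM with Compound 10, against 7, 4.70 and 8.42 CPM with vehicle, where the groups overlapped. Kif20b was above vehicle in both states and Kif22 after stimulation, while Kif11, the main motor that separates spindle poles, was 1.05-fold lower after stimulation, with overlap, and 1.47-fold higher at rest. The depolymerase Kif2c stayed below 3 CPM, and Kif18a, which limits microtubule length, was 2.24-fold higher at rest and 1.84-fold higher after stimulation, where the groups overlapped.

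Among the factors that shape spindle microtubules, Tpx2, which nucleates microtubules around chromosomes and activates Aurora A (chromosome 2, 152847964 to 152895321, + strand), had 30.5, 22.3 and 27.7 CPM in stimulated Compound 10 libraries, against 1.80 and 2.59 CPM with vehicle. At rest it had 21.7 and 22.8 CPM with Compound 10, against 2.30, 2.84 and 0.917 CPM with vehicle. Tpx2 was 12-fold higher in stimulated and 11.3-fold higher in unstimulated cells. Nusap1, which bundles spindle microtubules, had 24.2, 16.7 and 18.5 CPM in stimulated Compound 10 libraries, against 4.76 and 2.68 CPM with vehicle. At rest Nusap1 had 15.4 and 20.4 CPM with Compound 10, against 6.57, 6.19 and 8.59 CPM with vehicle. Nusap1 was separate in both states, by 5.40-fold and 2.52-fold. Tacc3, a spindle clathrin partner, had 52.8, 46.8 and 65.6 CPM in stimulated Compound 10 libraries, against 31.8 and 32.8 CPM with vehicle. At rest Tacc3 had 54.9 and 66.6 CPM with Compound 10, against 46.7, 44.7 and 40.2 CPM with vehicle. Its differences were thus smaller, at 1.71-fold and 1.39-fold. Ckap5, the microtubule polymerase that works with Tacc3, was lower, with 15.7, 10.9 and 10.5 CPM in stimulated Compound 10 libraries, against 25.7 and 19.6 CPM with vehicle. At rest Ckap5 had 17.5 and 17 CPM with Compound 10, against 31.5, 36.6 and 23.0 CPM with vehicle. Ckap2, a microtubule stabiliser, had 15.8, 12.2 and 17.2 CPM in stimulated Compound 10 libraries, against 9.26 and 11.1 CPM with vehicle, and at rest it had 13 and 13.6 CPM with Compound 10, against 16.1, 12.1 and 15.9 CPM with vehicle. After stimulation Ckap5 was below vehicle and Ckap2 above it, at rest Ckap5 was below and Ckap2 overlapped, and Hmmr and Aspm, both spindle pole proteins, had overlapping groups in both states.

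In the central spindle and cytokinesis, Anln, the anillin that organises the contractile ring, had 2.43, 4.19 and 2.83 CPM in stimulated Compound 10 libraries, against 0.129 and 0.259 CPM with vehicle. At rest Anln had 5.81 and 5.92 CPM with Compound 10, against 0.0547, 0.745 and 0.172 CPM with vehicle. Its vehicle levels rest on 4 counts in stimulated and 23 counts in unstimulated cells, so the folds of 15 and 18 are imprecise. Kif23, the motor of centralspindlin, had 72.8, 64.7 and 64.8 CPM in stimulated Compound 10 libraries, against 32.4 and 25.2 CPM with vehicle. At rest Kif23 had 32.4 and 43.5 CPM with Compound 10, against 13.7, 13.5 and 10.2 CPM with vehicle. Racgap1, its partner in centralspindlin, was 1.49-fold and 1.39-fold higher, in every library of both states.

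Prc1, which cross-links microtubules of the central spindle, had 42.6, 33.1 and 42.2 CPM in stimulated Compound 10 libraries, against 15.7 and 13.1 CPM with vehicle. At rest Prc1 had 24.6 and 35 CPM with Compound 10, against 15.2, 12.2 and 11.8 CPM with vehicle. Its exons overlap those of Rccd1 on the opposite strand over 911 bases. The libraries do not mark strand, so reads of Prc1 and Rccd1 cannot be told apart there. Rccd1 averaged between 1.20 and 2.40 CPM in the 4 groups, an estimate that divides the same reads. Ect2, which activates RhoA at the cleavage site, had 4.75, 3.17 and 2.65 CPM in stimulated Compound 10 libraries, against 0.257 and 0.778 CPM with vehicle. At rest Ect2 had 3.64 and 4.09 CPM with Compound 10, against 2.74, 1.72 and 0.659 CPM with vehicle. Prc1 and Ect2 were above vehicle in every library of both states. Cep55, the abscission scaffold, had 0.994, 0.257 and 0 CPM in stimulated Compound 10 libraries, against 2.19 and 0.519 CPM with vehicle. At rest Cep55 had 0.893 and 0.125 CPM with Compound 10, against 0.876, 0.605 and 0.659 CPM with vehicle, and its groups overlapped in both states. Kif20a, a motor that brings passenger proteins to the midzone, was 2.21-fold higher in stimulated and 1.89-fold higher in unstimulated cells. Its exons overlap those of Cdc23 on the opposite strand over 1271 bases, so reads of the 2 genes cannot be told apart there, and Cdc23 averaged 11 CPM in stimulated Compound 10 libraries and 21.9 CPM with vehicle, and 21.9 CPM at rest with Compound 10 and 48.8 CPM with vehicle.

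**Figure D3:**
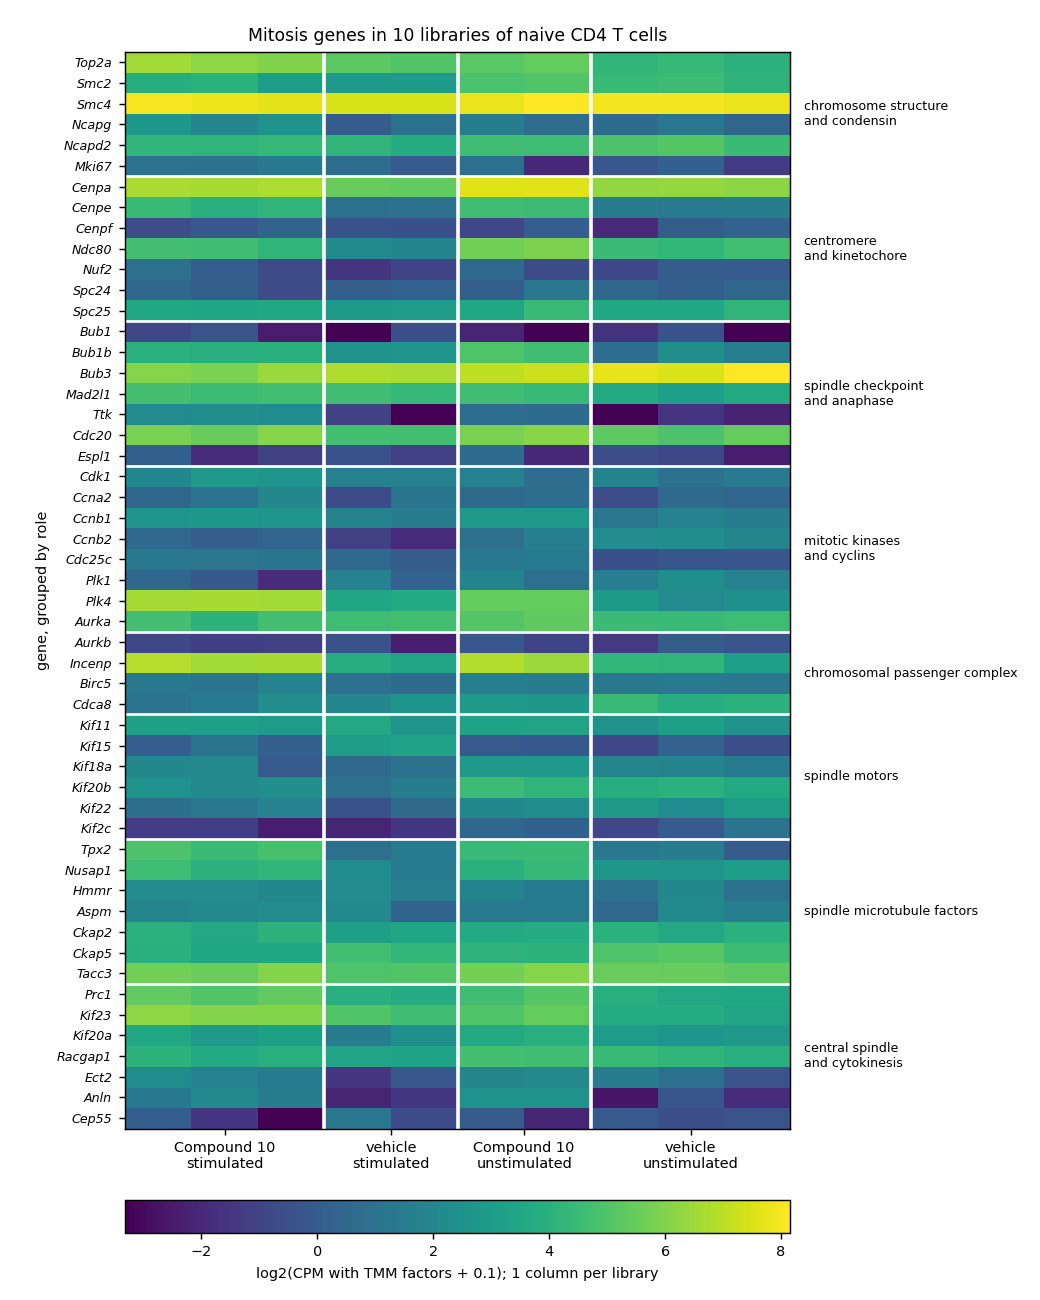
Level of all 52 members in every library as log2(CPM with TMM factors + 0.1), with genes as rows grouped by role and libraries as columns grouped by treatment and state. The contrast between Compound 10 and vehicle columns is seen in single genes within each role (Cenpe, Ndc80, Bub1b, Plk4, Incenp, Tpx2, Anln), and the dark rows are the genes that stayed low in all 10 libraries.

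Some of the best known markers of dividing cells were among the genes that stayed low in every library. The members below 3 CPM in every library were Mki67, Cenpf, Nuf2, Spc24, Bub1, Espl1, Cdc25c, Aurkb, Kif2c and Cep55. This limit does not account for transcript length. Spc24 and Cdc25c averaged 1.43 and 1.16 TPM over the 10 libraries, more than the unlisted Aspm (0.567), Anln (0.576), Kif15 (0.604), Ccna2 (0.874) and Ttk (0.96). Cdc25c was low but did change, at 3.49-fold higher with Compound 10 at rest. Mki67, which codes for the proliferation antigen Ki-67, had 1.99, 1.88 and 2.39 CPM in stimulated Compound 10 libraries, against 1.67 and 0.865 CPM with vehicle. At rest Mki67 had 1.72 and 0.150 CPM with Compound 10, against 0.766, 1.07 and 0.315 CPM with vehicle. The Mki67 groups were separate after stimulation and overlapped at rest, with log2 fold changes of 0.74 ± 0.85 and 0.30 ± 0.83 (± SE). Those levels rest on 67 and 23 counts in stimulated Compound 10 and vehicle cells, and on 33 and 48 counts at rest. Per length, Mki67 averaged 0.217 TPM in stimulated Compound 10 libraries and 0.124 TPM with vehicle, while Tpx2 averaged 13.3 TPM and 1.67 TPM in the same groups. Espl1, the separase that cuts cohesin, held 16 and 9 counts in stimulated Compound 10 and vehicle cells, and 30 and 23 counts at rest. After stimulation its libraries had 1.1, 0.171 and 0.353 CPM with Compound 10, against 0.643 and 0.346 CPM with vehicle. With so few counts and this spread between libraries, its log2 fold change of 0.12 ± 1.20 (± SE) cannot resolve a 2-fold difference.

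Stimulation was not the contrast that chose the members, though it uses the same libraries, and under vehicle it lowered more of them than it raised. Members listed as higher with Compound 10 may be favoured for low levels in stimulated vehicle libraries and high levels in stimulated Compound 10 libraries. Part of the tilt under vehicle may thus be built in, so the counts and adjusted p-values for stimulation are a description. Of 51 members tested, 5 rose and 13 fell in stimulated against unstimulated vehicle cells (edgeR, adjusted p under 0.05), against 19.5% of all genes rising and 19.4% falling. In shares of the members this was 9.80% and 25.5%. The median log2 fold change over the members was -0.44, where all genes had a median of -0.06. The genes that rose were Top2a, Plk4, Kif23, Mad2l1 and Kif15. Kif15 rose most, by 3.64 ± 0.46 on the log2 scale (adjusted p 9.58e-05, edgeR), followed by Kif23 at 1.21 ± 0.20 (adjusted p 0.000711, edgeR) and Plk4 at 1.04 ± 0.22 (adjusted p 0.0026, edgeR). Of the genes that fell, the cyclin Ccnb2 changed most, at -4.01 ± 0.53 (adjusted p 0.000138, edgeR). The motors Kif20b and Kif22 changed by -2.61 ± 0.30 and -2.61 ± 0.47 (adjusted p 4.52e-05 and 0.00107, edgeR), and Ndc80 by -2.51 ± 0.25 (adjusted p 1.76e-05, edgeR). Smc2 at -1.52 ± 0.27, Bub3 at -1.08 ± 0.22 and Cenpa at -0.82 ± 0.14 fell less (adjusted p 0.000996, 0.00269 and 0.000822, edgeR).

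With Compound 10 present in both groups, 5 members rose with stimulation and 8 fell, against 12.8% of all genes rising and 13.7% falling. Top2a, Plk4 and Kif23 rose again, at 0.93 ± 0.21, 1.18 ± 0.21 and 0.83 ± 0.21 on the log2 scale (adjusted p 0.00654, 0.00179 and 0.0121, edgeR). Ncapg at 1.36 ± 0.45 and Cdk1 at 1.31 ± 0.42 rose as well (adjusted p 0.0429 and 0.0396, edgeR). Kif15 had 0.76 ± 0.49 and did not pass (adjusted p 0.298, edgeR), nor did Ccnb2 at -0.98 ± 0.40 (adjusted p 0.0922, edgeR). Kif20b, Ndc80, Smc2, Cdca8, Bub3, Cenpa, Racgap1 and Aurka fell, by amounts between 0.70 for Aurka and 2.05 for Kif20b on the log2 scale. These counts depend on the scaling: with library totals in place of TMM factors, all genes shifted to a median of -0.83 under vehicle and -0.60 with Compound 10, and 1 member rose and 26 fell under vehicle, while 1 rose and 23 fell with Compound 10. Kif23 and Plk4 then had 0.42 and 0.28 under vehicle and no longer passed.

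**Figure D4:**
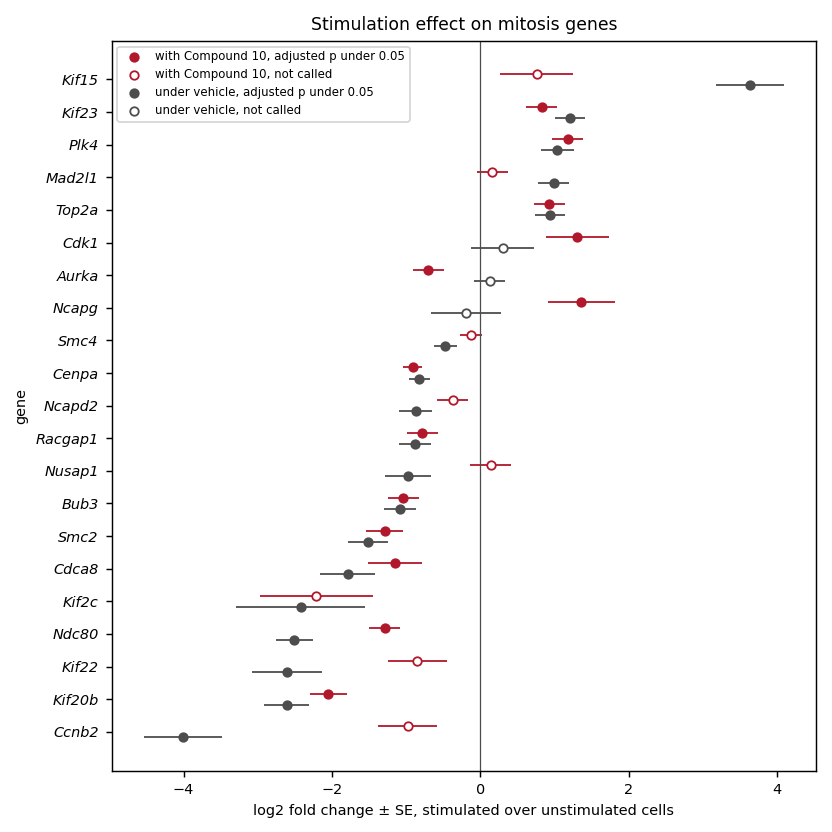
Log2 fold change ± SE of stimulated over unstimulated cells (x axis) for the members that passed in either treatment, with Compound 10 (red) above vehicle (grey) for each gene, filled where the adjusted p was under 0.05. Kif15 rose by 3.64 under vehicle and did not pass with Compound 10, Ccnb2 at the bottom fell by 4.01 under vehicle, and Plk4, Kif23 and Top2a lie right of 0 in both treatments; whether the treatments differ is not tested by this plot.

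Most of the reads behind these genes lay in ordinary coding transcripts. Over all libraries, 30 of the 52 genes had over 90% of their estimated counts in annotated protein-coding transcripts, and 21 had over 90% in 1 transcript, of which 16 genes have only 1 annotated. Among the 15 genes higher in both states, 9 were over 90% coding. Incenp, Ndc80, Kif23 and Anln have 1 annotated transcript, Cenpe-201 held 99.9% of the Cenpe counts and Bub1b-201 held 98.9% of those of Bub1b. Plk4 was divided between 2 coding transcripts, Plk4-201 with 60.9% and Plk4-202 with 39.1%. The 2 genes under 50% were Cenpa and Smc4. Cenpa had 12.2% of its counts in coding transcripts, 43.8% in transcripts annotated for nonsense-mediated decay and 44.0% in retained introns, and Cenpa-208, a retained-intron transcript, held 38.8%, while the decay transcript Cenpa-202 held 32.5%. Smc4 had 47.7% in coding transcripts and 47.8% in decay transcripts, with 46.8% in Smc4-207 alone. Other members spread over coding transcripts, such as Smc2 with 43.8% in Smc2-201 and 36.1% in Smc2-204 over all libraries, and for some the division differed between groups or libraries. Ckap5-204 held 28.1% of Ckap5 counts in stimulated Compound 10 cells and 48.6% with vehicle, and 85.6% at rest with Compound 10 and 40.4% with vehicle. By library its shares were 0%, 43.4% and 45.2% in stimulated Compound 10 cells, against 80.9% and 20.3% with vehicle, so these groups overlapped. At rest they were 92.7% and 82.8% with Compound 10, against 24.7%, 54.2% and 38.2% with vehicle. Prc1-206 held 23.7% of Prc1 counts in stimulated Compound 10 cells and 3.58% with vehicle, and 45.4% at rest with Compound 10 and 50.7% with vehicle. Cep55-201 held 94.2% of Cep55 counts in stimulated Compound 10 cells and 100% with vehicle, and 5.91% at rest with Compound 10 and 22.4% with vehicle. The Cep55 shares rest on 12 and 23 counts in stimulated Compound 10 and vehicle cells and on 19 and 52 at rest, so they are imprecise. Aurka-203, Cdca8-202, Tacc3-203 and Cdc20-201 each held 84.1% to 88.2% of the counts of their gene. Counting coding transcripts only, the log2 fold change of Cenpa with Compound 10 at rest was 1.16 in place of 1.33. Exons of Ncapg overlap those of Lcorl over 944 bases, and exons of Ccna2 overlap those of Exosc9 over 510 bases, on opposite strands, so that reads from these stretches cannot be assigned to either gene.

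Over all members, coding transcripts held between 75.4% and 82.7% of counts per library, against 74.5% to 84.3% over all genes. Decay transcripts held 11% to 16.6%, against 2.88% to 3.58% over all genes. Without Cenpa and Smc4 the members had 93.4% to 96.2% in coding and 0.231% to 1.45% in decay transcripts. The 15 genes higher in both states, Cenpa among them, had 58.3% to 82% in coding and 6.73% to 21.2% in decay transcripts. Their retained introns held 8.54% to 22.4%, against 4.91% to 5.87% over all genes. The share of the leading transcript also differed in Tpx2, Ttk and Nusap1. Tpx2-202, a coding transcript, held 64.5% of Tpx2 counts in stimulated Compound 10 cells and 0% with vehicle, and 48.8% at rest with Compound 10 and 20.6% with vehicle. The main coding transcript of Ttk held 82.8% in stimulated Compound 10 cells and 0% with vehicle, and 83.2% at rest with Compound 10 and 0% with vehicle, so that the 3 counts and 9 counts of the vehicle groups lay outside it. Nusap1-202 held 96.7% in stimulated Compound 10 cells and 66.8% with vehicle, and 74.9% at rest with Compound 10 and 38.3% with vehicle. In stimulated cells its shares by library were 96.2% to 97.2% with Compound 10, against 93.5% and 35.1% with vehicle, so that 1 vehicle library lay close to the Compound 10 libraries. The vehicle shares rest on 44 counts for Tpx2 and 68 for Nusap1 in stimulated cells, and kallisto's division of few reads among similar transcripts is uncertain. Ect2 shows this, since Ect2-202 held 71.4% of counts in one unstimulated Compound 10 library and under 0.1% in the other.

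**Figure D5:**
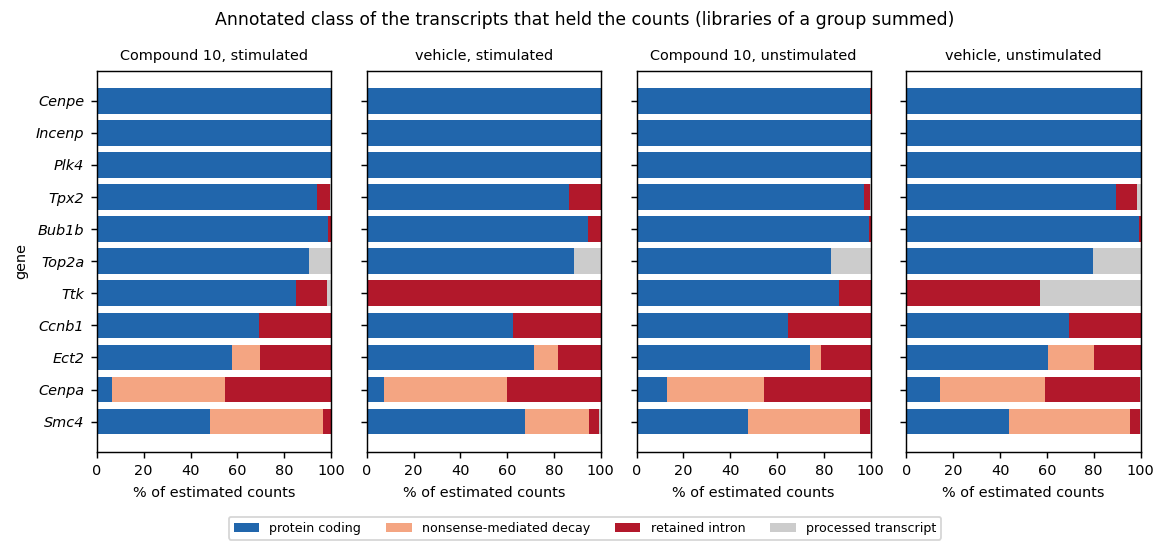
Share of estimated counts (x axis, percent) in each annotated class of transcript for 11 members, with the libraries of a group summed, in 4 panels for the groups. Cenpe, Incenp and Plk4 are at least 99.9% protein coding in every panel, Cenpa is mostly in decay and retained-intron transcripts in every panel, and Ttk is mostly coding in the Compound 10 panels but not in the vehicle panels, where it has 3 and 9 counts.

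Of the rest of the mitotic machinery, 116 other genes were listed by function. Of the 111 tested, 15 rose and 9 fell with Compound 10 in stimulated cells, which is 13.5% and 8.11%, against 10.4% and 12.8% of all genes. In unstimulated cells 9 rose and 7 fell, which is 8.11% and 6.31%, against 4.65% and 3.78%. Spdl1, which recruits dynein to kinetochores, rose in both states, by 2.22 ± 0.26 and 1.36 ± 0.23 on the log2 scale (adjusted p 0.000193 and 0.00671, edgeR). Dlgap5, a microtubule protein that stabilises spindle fibres, rose most among the named genes at rest, by 2.63 ± 0.24 (adjusted p 0.000239, edgeR), with 21.8 and 24.5 CPM with Compound 10, against 3.99, 3.54 and 3.70 CPM with vehicle. The minus-end motor Kifc1, the condensin subunit Ncaph and the kinase Plk2 also rose at rest, by 1.55 ± 0.18, 1.45 ± 0.20 and 1.09 ± 0.17 (adjusted p 0.000783, 0.00314 and 0.0052, edgeR). In stimulated cells Cenpl, an inner kinetochore subunit, rose by 1.61 ± 0.16 and Arhgap11a, a RhoA regulator, by 1.38 ± 0.19 (adjusted p 8.78e-05 and 0.000431, edgeR). Cdc16, a subunit of the anaphase-promoting complex, fell by 1.75 on the log2 scale and Mis18a, which helps load Cenpa, fell by 1.24 (adjusted p 0.000448 and 0.000828, edgeR). Over the list, the median log2 fold change with Compound 10 was 0.31 after stimulation and 0.02 at rest. The effect of Compound 10 differed between the 2 states in 8 of the 111 genes (interaction, edgeR, adjusted p under 0.05), against 6.63% of all genes.

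Genes of DNA replication, the step that precedes mitosis, changed in both directions. Of 53 tested, 9 rose and 8 fell with Compound 10 in stimulated cells (17% and 15.1%, against 10.4% and 12.8% of all genes), and 4 rose and 7 fell at rest (7.55% and 13.2%, against 4.65% and 3.78%). Orc1, a subunit of the origin recognition complex, rose in both states, by 1.73 ± 0.26 and 1.48 ± 0.24 on the log2 scale (adjusted p 0.00085 and 0.00633, edgeR). Mcm5, a subunit of the replicative helicase, fell in both states, by 1.30 and 0.98 (adjusted p 0.000382 and 0.00854, edgeR). Rrm2, which makes deoxynucleotides, rose by 1.49 ± 0.22 in stimulated cells (adjusted p 0.000812, edgeR), while the helicase subunits Mcm3 and Mcm6 fell by 1.07 and 0.77 there (adjusted p 0.00227 and 0.00266, edgeR). At rest the DNA ligase Lig1 rose by 1.10 ± 0.23, while the polymerase subunit Pold3 and the single-strand binding protein Rpa1 fell by 1.25 and 0.84 (adjusted p 0.0153, 0.00403 and 0.00579, edgeR).

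Among 24 regulators of mitotic transcription, 4 rose and 3 fell with Compound 10 in stimulated cells (16.7% and 12.5%, against 10.4% and 12.8% of all genes), and 2 rose and 0 fell at rest (8.33% and 0%, against 4.65% and 3.78%). The pocket protein genes Rbl2 and Rb1 rose in stimulated cells by 2.02 ± 0.31 and 1.14 ± 0.22 on the log2 scale, and the E2F partner Tfdp2 by 1.72 ± 0.17 (adjusted p 0.00086, 0.00361 and 8.78e-05, edgeR). The repressor E2f4 and the CCAAT-binding subunit Nfyb fell by 0.79 and 0.76 there (adjusted p 0.0214 and 0.0111, edgeR). At rest E2f1 rose by 1.39 ± 0.28 and the MuvB subunit Lin54 by 0.84 ± 0.19 (adjusted p 0.0152 and 0.0239, edgeR).

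Markers of T cells and of other cell types were read beside these results. Cd4 ran from 154 to 293 CPM and Cd3e from 79.2 to 237 CPM over the 10 libraries. The summed level of 10 B cell markers ran from 5.63 to 9.46 CPM in stimulated Compound 10 libraries and from 7.98 to 9.86 CPM with vehicle, and from 7.40 to 11.2 CPM at rest with Compound 10 and from 5.25 to 9.26 CPM with vehicle. Erythroid markers summed to at most 1.55 CPM in any library, with Hba-a1 at 0 and Hba-a2 at or below 0.150 CPM. The 10 myeloid markers summed to 20 to 26.5 CPM in stimulated Compound 10 libraries and 28.2 to 33 CPM with vehicle, and to 20.4 to 26.2 CPM at rest with Compound 10 and 25.7 to 35.2 CPM with vehicle, of which Cst3 held 16.6 to 32.8 CPM. The summed level of 8 markers of germinal centre and plasma cells was 498 to 571 CPM in stimulated Compound 10 libraries and 326 to 338 CPM with vehicle, and 221 to 244 CPM at rest with Compound 10 and 150 to 156 CPM with vehicle. Xbp1 carried most of that sum, while the plasma cell gene Mzb1 stayed at or below 0.171 CPM. The summed level of 11 memory or effector markers was 251 to 310 CPM in stimulated Compound 10 libraries and 364 to 398 CPM with vehicle, and 155 to 181 CPM at rest with Compound 10 and 103 to 108 CPM with vehicle. Of this sum, Il2rb held 43.8 to 78.9 CPM in stimulated Compound 10 libraries and 157 to 166 CPM with vehicle. At rest Il2rb held 38.1 to 45 CPM with Compound 10 and 7.62 to 15 CPM with vehicle. The summed level of 8 regulatory T cell markers was 108 to 157 CPM in stimulated Compound 10 libraries and 227 to 285 CPM with vehicle, and 79.1 to 88.3 CPM at rest with Compound 10 and 66.4 to 76.1 CPM with vehicle. Il2ra held 30.6 to 48.4 CPM of this sum in stimulated Compound 10 libraries and 152 to 184 CPM with vehicle. Of the others, Ctla4, Tnfrsf18 and Gpr83 averaged higher with Compound 10 in stimulated cells, and Foxp3, Ikzf2, Itgae and Lrrc32 averaged lower. Foxp3, which defines regulatory T cells, ran from 2.30 to 6.83 CPM over the 10 libraries. The 10 markers of CD8 T and NK cells summed to 8.17 to 11.8 CPM in stimulated Compound 10 libraries and 15.4 to 22.1 CPM with vehicle, and to 5.54 to 10.8 CPM at rest with Compound 10 and 6.14 to 8.28 CPM with vehicle. Cd8b1, with 2.41 to 10.5 CPM over the 10 libraries, and Eomes, with up to 7.26 CPM, held much of that sum. The 10 T cell identity genes summed to 3580 to 4172 CPM in stimulated Compound 10 libraries and 4525 to 4874 CPM with vehicle, and to 2520 to 2527 CPM at rest with Compound 10 and 1956 to 2159 CPM with vehicle. Several of these sums thus did not overlap between Compound 10 and vehicle, and their part in the members' levels was not tested.

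Sample indexes in the deposited files fall into 3 runs, which the labels do not explain. Within a run that held both treatments, all 15 genes were higher with Compound 10, with medians of 2.55 and 2.59 on the log2(CPM + 0.1) scale in stimulated cells and 1.45 and 2.46 at rest. The 15 genes were chosen on these same libraries, so their direction within a run is a description and no check. Without the second unstimulated Compound 10 library, which has 33486259 counts, 9 members passed at rest in place of 18, while over all genes 254 were higher and 71 lower in place of 670 and 545. Without the first stimulated vehicle library, 14 members passed in stimulated cells in place of 24, while over all genes 532 were higher and 1057 lower in place of 1502 and 1848. Of the 15 genes, at least 14 kept a 2-fold difference in both states in each of the 10 fits that left out a library, and the exceptions were Ect2, Prc1, Top2a and, in 2 fits, Ccnb1.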

How the data were processed

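RNA of 10 libraries was sequenced after a Clontech SMART-seq preparation, per the labels' protocols, which does not mark strand. Cutadapt, kallisto and mm10 were used per the submitters' processing notes. Tool versions and the annotation behind the index are not given in the sources used. The authors deposited, per library and transcript, kallisto's estimated counts and TPM with transcript lengths, per the file headers. Kallisto shares reads among similar transcripts.

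Transcripts were matched to GENCODE M21 by identifier (108214 of 109617; the 1403 others held 0.507% to 0.671% of counts and were left out). For each gene the estimated counts of its transcripts were added up, then rounded to whole numbers. All libraries entered 1 edgeR 4.0.16 fit (limma 3.58.1, R 4.3.3) with 1 coefficient per group, TMM factors (0.731 to 0.850 stimulated, 1.20 to 1.34 unstimulated) and filterByExpr, which kept 14417 of 45321 genes. The quasi-likelihood F test was adjusted by Benjamini-Hochberg over these genes, with a threshold of 0.05. SEs come from the estimate and F, and are too small where counts are few. Group levels of TPM are means of the deposited values. Counting intervals are exact at 95% and cover counting error only. Pairs of libraries within groups all differed beyond sampling noise (chi-square per degree of freedom at least 14.8).

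The members, their roles and the gene lists were chosen with earlier results of these data known. Named with values in every library were the 2 members per role with the highest mean TPM, the 8 largest and 4 lowest fold changes for Compound 10 in each state, and up to 10 members that passed for stimulation under vehicle; from the lists of other mitosis, DNA replication and regulator genes, up to 5 genes with the smallest adjusted p per Compound 10 contrast. Top2a, Cdk1, Ccnb1, Nusap1 and Mki67 are also given with values in every library, chosen after their values were seen. Other members are named within their role, with counts or folds. Genes named for a difference between states in the closing section were chosen after their values were seen. Alternatives were DESeq2 1.42.0, library totals, upper-quartile factors, no filter, coding transcripts only, each library left out, the replicate number as a block, the sample index run as a term, and TPM. The procedure was tested on simulated data.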

Additional observations from a re-analysis of the deposited data

Results flagged for a closer look

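Among the 111 other mitosis genes tested, the effect of Compound 10 differed between stimulated and unstimulated cells in 8, by the interaction term of the same edgeR fit (adjusted p under 0.05). This was 4.5% with a positive and 2.7% with a negative difference, against 6.63% of all genes in either direction. The difference is the log2 fold change in stimulated cells minus that in unstimulated cells. It was positive for Gtse1 at 2.23 (adjusted p 0.0286), Cdc25b at 1.90 (adjusted p 0.0282), Ska2 at 1.84 (adjusted p 0.0491), Cenpl at 1.09 (adjusted p 0.0147) and Anapc5 at 0.76 (adjusted p 0.0348). It was negative for Wee1 at -2.15 (adjusted p 0.0127), Dlgap5 at -1.89 (adjusted p 0.0129) and Cdc16 at -1.32 (adjusted p 0.0407). Wee1, the kinase that restrains Cdk1, had 3.42, 2.40 and 2.39 CPM in stimulated Compound 10 libraries, against 7.2 and 7.09 CPM with vehicle, and at rest 3.64 and 4.49 CPM with Compound 10, against 2.24, 2.61 and 2.35 CPM with vehicle. Cdc25b, a phosphatase that opposes Wee1, had 80.3, 63.7 and 68.8 CPM in stimulated Compound 10 libraries, against 25.5 and 20.7 CPM with vehicle, and overlapping groups at rest.

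Outside this list the same term passed for the replication genes Cdc6 at 3.23 (adjusted p 0.0254) and Rpa1 at 1.16 (adjusted p 0.00691), and for the regulators Rbl2 at 1.99 (adjusted p 0.017) and Tfdp2 at 1.83 (adjusted p 0.00215), all in edgeR. These were 2 of 53 replication genes (3.77%) and 2 of 24 regulators (8.33%), against 6.63% of all genes. Cdc6 had only 1.67 and 0.346 CPM in stimulated vehicle libraries, so its value is imprecise.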

How the results depend on the processing

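None of the 72 values of named members changed sign where it was called, and the number of members or other mitosis genes past the threshold stayed within 1.5 times its main value under DESeq2, upper-quartile factors, no filter and coding transcripts only. With library totals, members past the threshold for stimulation with Compound 10 numbered 24 in place of 13, and other mitosis genes 58 in place of 35 with Compound 10 and 79 in place of 43 under vehicle, with all genes shifted as given above. With library totals and upper-quartile factors, the median of all genes for Compound 10 in stimulated cells was 0.15 and 0.18 in place of 0.04, and all genes split into 1831 higher and 1525 lower or 2090 and 1528, in place of 1502 and 1848; the members then had 24 higher and 2 lower or 25 and 1. With the sample index run as a term, other mitosis genes for Compound 10 at rest numbered 25 in place of 16, members 22 (3 of them lower) in place of 18, and all genes 1271 higher and 1132 lower in place of 670 and 545. Leaving out each library gave 9 to 19 members for Compound 10 at rest, 14 to 27 in stimulated cells, and 8 to 14 for stimulation with Compound 10. It gave 6 to 19 other mitosis genes for Compound 10 at rest and 13 to 30 in stimulated cells; other mitosis genes at rest numbered 6 and 9 without the second or first Compound 10 library and 8 and 9 without the first or second vehicle library, and in stimulated cells 13 and 14 without the first or second vehicle library. The lowest member counts came without the second unstimulated Compound 10 library (9 at rest, 8 for stimulation with Compound 10) and the first stimulated vehicle library (14). For the transcripts that carry the counts, by TPM coding classes held a mean of 68.2% of the members' level in place of 78.0% of counts. The replicate numbers did not pair the libraries, as deviations of same-numbered libraries correlated between -0.279 and 0.331. Between unstimulated vehicle and stimulated Compound 10 cells, however, every library correlated best with its own number (0.054 to 0.151), a hint from the data and not the design. Those same-numbered pairs also fell in the same run, so number and run cannot be told apart there. Libraries of the same run correlated between -0.052 and 0.464, with 0.279 and 0.464 for the unstimulated pairs. With the replicate block, 27 members passed for Compound 10 in stimulated cells, 19 at rest, 13 for stimulation with Compound 10 and 19 under vehicle. The cause of these shifts was not tested.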
